A study of Mus musculus with 2 samples.

Results

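Open chromatin was described at 34 genes of the LIF, FGF, Nodal, BMP and Wnt pathways, separately on the 129 and the CAS (castaneus) chromosome of F121-6 cells. F121-6 is a female hybrid mouse embryonic stem cell line that carries 1 chromosome set of each strain. Members were the rows of the allele-specific ATAC-seq table that share a base with the gene body of 1 of the 34 genes. ATAC-seq uses a transposase that cuts and tags accessible DNA, and the table gives a count per allele for windows of 50 kb. In all, 33 of the 34 genes had a row, in 59 distinct windows of the 43941 in the table, and 18577 of 20665 protein-coding genes had one. Fgf4 (chromosome 7, 144861386 to 144865245) had none, and for Gsk3b 1 of 4 windows was listed.

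The data are 2 replicates of 1 group, each with 129 and CAS counts from the same library. Both replicates were grown on inactivated mouse embryonic fibroblast feeders in medium with fetal calf serum and 1000 units of LIF per ml, and both come from 1 line. Library totals were 44026 counts on the 129 allele and 46128 on the CAS allele in replicate 1, and 59812 and 59995 in replicate 2. The labels do not say whether the replicates were separate cultures, so the spread between them may be technical. Single windows hold 0 to 18 counts per allele and replicate, so a difference of 1 or 2 counts is the smallest step the table can show. Windows of the stem cell markers averaged 23.0 counts over both alleles and both replicates, against 6.00 for fibroblast markers and 5.86 for primitive endoderm markers. All 9 stem cell genes had 12 or more counts. Among the 10 fibroblast markers, which feeder cells would carry, totals ran from 1 to 18, and of the 4 primitive endoderm markers Sox17 had 26 counts, Gata4 11, Gata6 4 and Sox7 0. Their part in the counts below was not tested.

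LIF binds the receptor pair encoded by Lifr and Il6st and acts through Jak1 and Stat3 to sustain self-renewal of mouse embryonic stem cells. FGF4 and the ERK kinases it activates move these cells towards differentiation, and Nodal, with its inhibitors Lefty1 and Lefty2, signals through Smad2 and Smad3. BMP ligands, which serum also supplies, induce the Id genes through Smad1. Wnt ligands stabilise β-catenin, the product of Ctnnb1, which relieves repression by Tcf7l1 and acts with factors such as Lef1.

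Windows of these genes were among the more open ones of the genome on both alleles. The 59 windows averaged 10.0 counts over both alleles and replicates, with a median of 6, against 5.70 in windows with a protein-coding gene and 4.78 in all windows, where the median was 3. Of the 59, 19 (32.2%) had a total of 13 or more, a level reached by 8.21% of all windows. Another 7 of the 59 had 0 counts, as 21.7% of all windows had. Per gene, the median was 9 counts per window, against 6 over all protein-coding genes with a row, and 8 of the 33 genes ranked above 90% of those genes. FGF genes had the most, 14.8 counts per window, and the other pathways had 8.22 to 9.11.

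Alleles contributed almost equally. The 129 share (129 counts as a percentage of 129 plus CAS counts) was 48.6% in replicate 1 (144 of 296 counts, 95% Clopper-Pearson interval 42.8 to 54.5%) and 46.6% in replicate 2 (138 of 296, 40.8 to 52.5%). Over all windows it was 48.8% and 49.9%. Weighted by where the counts lie, the chromosomes of the members had shares of 47.8% and 49.1%. Intervals cover counting error only and treat counts as independent. The split between alleles varied less than that: over all windows with a count its variance was 0.495 and 0.605 of the binomial one in replicates 1 and 2, and over member windows 0.31 and 0.529 of it. A two-sided exact permutation test of 2 against 2 columns cannot go below p = 0.33, so no p-value is given for single shares.

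By pathway, the LIF genes had a 129 share of 47.7% (32.5 to 63.3%) and 47.9% (33.3 to 62.8%) in replicates 1 and 2. The FGF genes had 51.5% (41.2 to 61.8%) and 46.3% (36.0 to 56.9%), and the Nodal genes 46.5% (31.2 to 62.3%) and 51.3% (34.8 to 67.6%). For the BMP genes the values were 51.3% (34.8 to 67.6%) and 42.9% (26.3 to 60.7%). All 8 of these intervals include 50%, and the FGF, Nodal and BMP shares lay on different sides of 50% in the 2 replicates. The Wnt genes had the lowest mean share, 45.4% ± 0.258 (SD, n = 2), at 45.2% (33.5 to 57.3%) and 45.6% (34.3 to 57.2%). Lef1 alone held 59 of the 152 Wnt counts, and without it the Wnt share was 45.5% in replicate 1 and 55.1% in replicate 2. Every pathway interval overlapped the others, so no order among pathways can be read from these values.

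**Figure D1:**
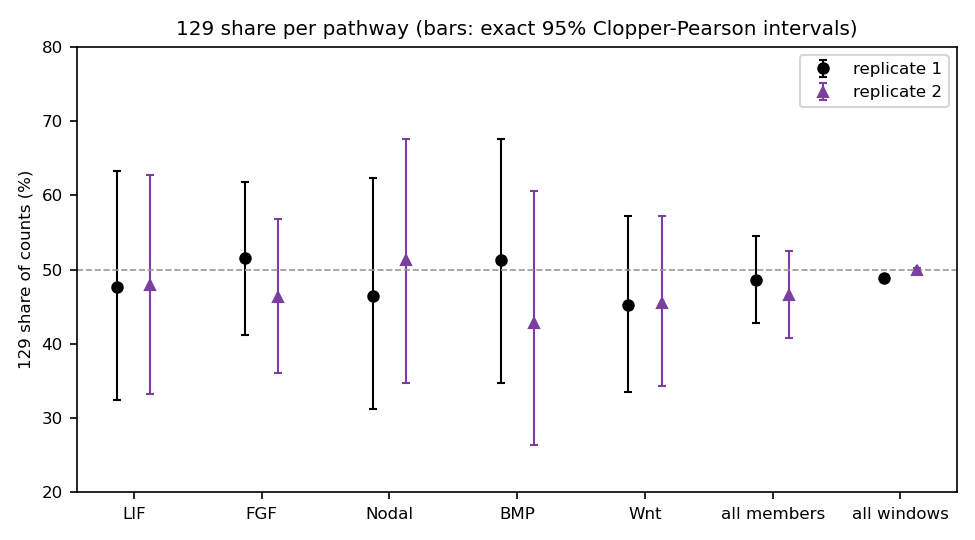
129 share of counts (%, y axis) for the windows of each pathway, of all 34 genes and of the whole table, in replicate 1 (circles) and replicate 2 (triangles); bars are exact 95% Clopper-Pearson intervals. All intervals of the 5 pathways include 50%, and the Wnt genes lie at 45.2% and 45.6%.

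Gene by gene, 4 of the 33 genes had more 129 than CAS counts in both replicates (Fgf5, Spry4, Lefty1 and Wnt3), against 13.3% of all protein-coding genes with a row. In 3 genes the CAS count was higher in both (Fgfr1, Tcf7l1 and Lef1), against 14.2%. Both shares are near the background (12.1% and 9.09% of the 33). Another 5 genes had equal counts on the alleles in both replicates (15.2%, against 20.3% of all genes). Genes with 0 counts, 8.09% of all genes and none of the 33, are tied by definition and raise that 20.3%. In 4 genes the replicates went opposite ways (12.1%, against 14.5%), and 17 were equal in 1 replicate (51.5%, against 37.7%). With the 129 and CAS counts of both replicates pooled, the median 129 share per gene was 48.0% among the 33 genes and 50.0% over all protein-coding genes with a count. When the alleles had to differ by at least 2 counts in both replicates, 0 genes were higher on 129 (3.48% of all genes) and 1, Lef1, on CAS (3.85%). At 3 counts, the members again numbered 0 on 129 (1.15% of all genes) and 1 on CAS (1.36%). Among genes with 10 or more counts, 3 of 22 members were higher on 129 (18.1% of all such genes) and 3 on CAS (20%). At 2 counts these were 0 (6.28%) and 1 (7%), and at 3 counts 0 (2.26%) and 1 (2.73%). In edgeR's quasi-likelihood test with Benjamini-Hochberg adjustment over 9171 genes with 10 or more counts, 0 of the 22 members tested were called, and 0 genes overall (0%). Of the 9171, 127 (1.38%) had an unadjusted p under 0.05, none of them a member, and the DESeq2 Wald test also called 0, with 3 at an unadjusted p under 0.05. With the replicate as a block, which pairs the alleles of a library, edgeR called 1 gene on the CAS side (0.0109%), not a member. Few genes reached even an unadjusted p under 0.05, so the absence of calls does not show that the alleles are equal. The allele splits varied less than binomial counts, and whether these tests suit such counts was not tested.

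**Figure D2:**
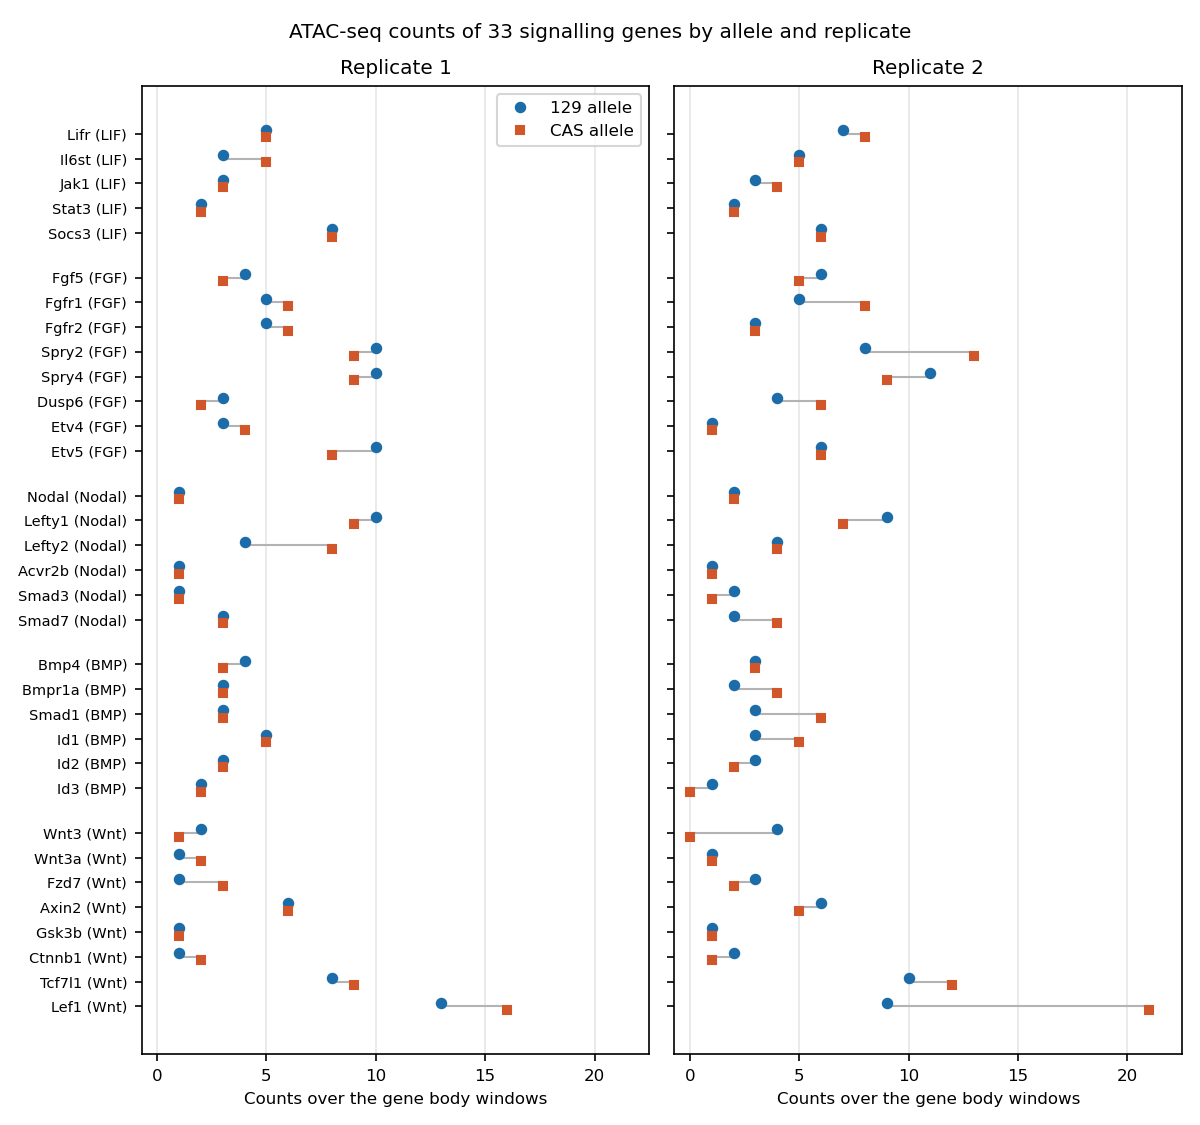
Counts summed over the gene body windows of each of 33 genes (x axis, counts) on the 129 allele (blue circles) and the CAS allele (orange squares), in replicate 1 (left) and replicate 2 (right). Most pairs differ by 0 to 2 counts, and the widest gap is at Lef1 in replicate 2, with 9 on 129 and 21 on CAS.

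Among the LIF receptor genes, Lifr had 5 and 7 counts on the 129 allele in replicates 1 and 2, against 5 and 8 on CAS. Il6st, which encodes the shared signalling subunit gp130, had 3 and 5 on 129 against 5 and 5 on CAS. Jak1, the kinase bound to the receptor, had 3 and 3 on 129 against 3 and 4 on CAS. In the Il6st window of the gene start (chromosome 13, 112450001 to 112500000) the counts were 2 and 3 on 129 against 4 and 5 on CAS. Of 52 member windows with a count, it was 1 of 2 with a CAS excess of 2 or more counts in both replicates. Of all windows with a count, most of them with lower totals, 1.92% show this. Summed over their windows, these 3 genes were equal in 1 replicate and 1 or 2 counts higher on CAS in the other. Stat3, the transcription factor that LIF activates, had 2 counts on each allele in each replicate. Its windows had 4 counts each, near the median of all windows, and 1 of them is shared with Stat5a and Stat5b.

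Socs3, a Stat3 target whose product blocks the receptor, had by far the most open window of the LIF genes. The window (chromosome 11, 117950001 to 118000000, shared with Pgs1) had 8 and 6 counts on 129 and the same 8 and 6 on CAS. That total of 28 was above 99.5% of all windows and the highest within 1 Mb on either side. The Socs3 promoter is shown because it is the single one of 33 promoter sequences, of 27 matched members, that holds the STAT motif TTCNNNGAA (both strands searched), which 7.78% of 20085 protein-coding promoters hold. Capitals mark the match, whose first base is at position -154 relative to the transcription start. Promoters here run from 250 bases before to 50 bases after a start in RefSeq on GRCm38.p6, the sequence of mm10, and are printed 5′ to 3′ on the gene's strand (chr11:117969317-117969616, minus strand).
Socs3: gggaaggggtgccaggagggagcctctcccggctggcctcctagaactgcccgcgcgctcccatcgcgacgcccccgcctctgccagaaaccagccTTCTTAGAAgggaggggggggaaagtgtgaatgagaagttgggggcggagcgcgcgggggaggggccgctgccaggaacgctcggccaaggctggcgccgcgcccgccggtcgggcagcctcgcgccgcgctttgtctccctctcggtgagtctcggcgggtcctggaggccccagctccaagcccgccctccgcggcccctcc

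Of the FGF pathway genes, the Sprouty genes, which encode feedback inhibitors, had the most counts. Spry2, whose product dampens receptor tyrosine kinase signalling, lies alone in the window with the highest total of all 59 (chromosome 14, 105850001 to 105900000). It had 10 and 8 counts on 129 in replicates 1 and 2, against 9 and 13 on CAS, a total of 40 that exceeded 99.9% of all windows. The 129 allele was thus 1 count higher in replicate 1 and 5 lower in replicate 2, with shares of 52.6% (28.9 to 75.6%) and 38.1% (18.1 to 61.6%), while chromosome 14 as a whole had 45.2% and 45.9%. Spry4, a second Sprouty gene, had 10 and 11 on 129 against 9 and 9 on CAS over 2 windows of chromosome 18. The window with more counts, 27 in total, is shared with Arhgap26. Chromosome 18 had shares of 44.6% and 44.8%, so the small excess of 129 at Spry4 went against its chromosome. Dusp6, an ERK phosphatase, had 3 and 4 on 129 against 2 and 6 on CAS. It lies on chromosome 10, whose 129 shares were 59.8% and 55.6%, and its own direction differed between the replicates.

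Of the ligands, Fgf5, a marker of cells leaving the naive state, had 4 and 6 counts on 129 against 3 and 5 on CAS, 1 count apart in each replicate. Of the receptors, Fgfr1 had 5 and 5 on 129 against 6 and 8 on CAS. It is on chromosome 8, where the 129 shares were 44.5% and 41.8%, so the lower 129 counts went with its chromosome. Fgfr2 had 5 and 3 on 129 against 6 and 3 on CAS, and 15 of its 17 counts lay in the window of the gene start. The ETS factors Etv4 and Etv5 are targets of FGF signalling. Etv5 had 10 and 6 on 129 against 8 and 6 on CAS. Etv4 had 3 and 1 on 129 against 4 and 1 on CAS, in a window shared with Dhx8. Neither differed by more than 2 counts in any replicate, and both had fewer counts in replicate 2 than in replicate 1.

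In the Nodal pathway the inhibitors were again the most open. Lefty1, which encodes a secreted antagonist of Nodal, had 10 and 9 counts on 129 against 9 and 7 on CAS in its window (chromosome 1, 180900001 to 180950000, shared with other coding genes). The adjoining window of Lefty2, a second antagonist, is shared with Sde2 and had 4 and 4 on 129 against 8 and 4 on CAS. Its difference of 4 counts in replicate 1 was not seen in replicate 2, where the alleles were equal. Lefty1 totalled 35 and Lefty2 20, and Lefty1 was the highest window within 1 Mb on either side. Nodal itself had 1 and 2 on each allele, in a window shared with Eif4ebp2. Equal counts there stand beside a 129 share of 66.7% and 54.2% in the windows within 1 Mb on either side, and beside 59.8% and 55.6% on chromosome 10.

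The receptor gene Acvr2b had 1 count on each allele in each replicate, in a window shared with Exog. Smad3, a transducer of Nodal signals, had 1 and 2 on 129 against 1 and 1 on CAS over 4 windows. That is 1.25 counts per window, the lowest of the 33 genes. Smad7, an inhibitor of the same receptors, had 3 and 2 on 129 against 3 and 4 on CAS. None of these genes differed by more than 2 counts in a replicate.

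In the BMP pathway no gene was higher on the same allele in both replicates. Bmp4, the ligand, had 4 and 3 counts on 129 against 3 and 3 on CAS. Bmpr1a, a type I receptor, had 3 and 2 on 129 against 3 and 4 on CAS. All lay in the window of its start, which is shared with other coding genes. Smad1, the transducer, had 3 and 3 on 129 against 3 and 6 on CAS. Smad1 lies on chromosome 8, and the windows within 1 Mb of it had 129 shares of 45.4% and 40.0%. The Id genes encode helix-loop-helix proteins without a DNA-binding domain that block differentiation factors. Id1 had 5 and 3 on 129 against 5 and 5 on CAS, in a window shared with H13. Id2 had 3 and 3 on 129 against 3 and 2 on CAS, and Id3 had 2 and 1 on 129 against 2 and 0 on CAS. Each of the 6 BMP genes had equal counts on the alleles in 1 replicate, as 37.7% of all protein-coding genes had, and none in both. Over all members, 10 windows were tied in both replicates, 19.2% of those with a count, against 16.7% of all windows with a count.

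Id2 is shown because it is a BMP target whose promoter holds GGCGCC, a sequence that BMP-activated SMAD proteins can bind. In its window, shared with Kidins220, the total was 11. Within 1 Mb on either side, where 29 windows were listed with a median of 0, another window tied with it and none exceeded it. The motif was found in 13 of the 33 member promoters (39.4%) and in 15.8% of all protein-coding promoters. The 13 belong to 12 members, since overlapping Lef1 promoters hold the same site. Most of the 12 are LIF, FGF or Wnt genes. Among BMP genes with a matched promoter, Bmpr1a also held the motif, and Bmp4, Smad1 and Id3 did not. Median GC content was 66.7% in the member promoters and 57.0% in all, and the part of GC content in the difference was not tested. Capitals mark the match (chr12:25096043-25096342, minus strand).
Id2: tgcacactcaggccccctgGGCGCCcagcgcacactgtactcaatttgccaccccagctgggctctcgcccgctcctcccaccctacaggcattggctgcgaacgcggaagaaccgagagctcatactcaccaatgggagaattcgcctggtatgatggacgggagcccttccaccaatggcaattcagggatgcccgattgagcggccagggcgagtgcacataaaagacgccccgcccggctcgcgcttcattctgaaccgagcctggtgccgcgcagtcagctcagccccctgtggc

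Of the Wnt ligand genes, Wnt3 had 2 and 4 counts on 129 against 1 and 0 on CAS. With a CAS count of 0 of 4 in replicate 2, the exact interval of the 129 share was 39.8 to 100%. The direction is poorly determined with so few counts. Its second window (chromosome 11, 103800001 to 103850000, shared with Nsf) had 2 and 2 on 129 against 0 and 0 on CAS. Of 52 member windows with a count, this was the single 1 with a 129 excess of 2 or more counts in both replicates. Of all windows with a count, 1.60% pass. Wnt3a had 1 and 1 on 129 against 2 and 1 on CAS, with 0 counts in the window of its start. Fzd7, a Wnt receptor gene, had 1 and 3 on 129 against 3 and 2 on CAS, so its direction differed between replicates.

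Axin2, a scaffold of the complex and a Wnt target, had 6 and 6 counts on 129 against 6 and 5 on CAS, with 22 of its 23 counts in the window of its start. Gsk3b, the kinase of the complex, had 1 count on each allele in each replicate in the 1 window listed. Ctnnb1 had 1 and 2 on 129 against 2 and 1 on CAS. The repressor gene Tcf7l1 had 8 and 10 on 129 against 9 and 12 on CAS over 4 windows. At these 4 genes the alleles stayed within 2 counts of each other in each replicate.

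Lef1, the transcription factor that Wnt signals act through, had the largest number of counts of the 33 genes and, with both replicates summed, the largest difference in counts between alleles. Other genes differed more by other measures: Lefty2 by 1 count more in replicate 1, and Wnt3, with 7 counts in all, in its mean 129 share of 83.3%. It had 13 and 9 counts on the 129 allele in replicates 1 and 2, against 16 and 21 on the CAS allele. Both 129 values were below both CAS values. The 129 share was 44.8% (26.5 to 64.3%) in replicate 1 and 30.0% (14.7 to 49.4%) in replicate 2, a mean of 37.4% ± 10.5 (SD, n = 2). The fitted log2 difference of 129 over CAS was -0.73 (SE 0.30, derived from the F statistic; edgeR quasi-likelihood test, adjusted p = 0.988), so the gene was not called. The size rests on replicate 2: from replicate 2 alone the log2 ratio of counts was -1.22, and from replicate 1 alone -0.30.

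Within Lef1 the excess of CAS was largest in the window of the gene start. This window (chromosome 3, 131100001 to 131150000, no other coding gene) had 3 and 4 counts on 129 against 6 and 10 on CAS. Of 52 member windows with a count, it was the single 1 with a difference of 3 or more counts in the same direction in both replicates. Of all windows with a count, 0.346% show this on the CAS side. On the 129 side, 0 of the 52 member windows and 0.299% of all windows with a count show it. Most windows hold too few counts to reach it: the median over all windows was 3, against 23 here. Among protein-coding genes with 10 or more counts, summed over all windows of a gene, 2.73% passed on the CAS side. The share among single windows with 10 or more counts was not computed. The fitted log2 difference of the Lef1 start window was -1.15 (edgeR quasi-likelihood test, unadjusted p = 0.0598, adjusted p = 0.99). The DESeq2 Wald test gave -1.16 with an SE of 1. In the middle window (131150001 to 131200000) the counts were 4 and 1 on 129 against 4 and 4 on CAS, and in the last (131200001 to 131250000, shared with Hadh) 6 and 4 against 6 and 7. Both were equal in replicate 1 and higher on CAS in replicate 2. The windows within 1 Mb on either side had 129 shares of 50.9% and 49.3%, and chromosome 3 had 48.3% and 50.2%. Over all windows with 10 or more counts, edgeR called 2 on the 129 side (0.0305% of 6561) and 0 on the CAS side, and 0 of the 25 member windows tested, with 110 windows (1.68%) at an unadjusted p under 0.05. The 2 calls were 0 with the replicate as a block.

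The Lef1 promoter at its first listed start (chr3:131110047-131110346, plus strand) lies in that window. It is the reference sequence and does not show what differs between the strains. Capitals mark the GGCGCC motif.
Lef1: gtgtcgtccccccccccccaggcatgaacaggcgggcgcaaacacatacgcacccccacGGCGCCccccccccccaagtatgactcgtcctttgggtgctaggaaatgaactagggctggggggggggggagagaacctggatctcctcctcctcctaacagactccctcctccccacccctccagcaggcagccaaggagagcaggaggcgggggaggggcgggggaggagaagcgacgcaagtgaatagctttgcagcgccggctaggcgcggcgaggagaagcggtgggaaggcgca
The TCF/LEF motif CTTTGAT was found in 0 of the 33 member promoters and in 3.26% of all, and the SMAD palindrome GTCTAGAC in 0 and in 0.239% (both strands searched). The ETS motif CCGGAAG was found in 1 member promoter, that of Bmp4, and in 11.9% of all. These matches describe letters in a window of 300 bases and say nothing of binding.

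**Figure D3:**
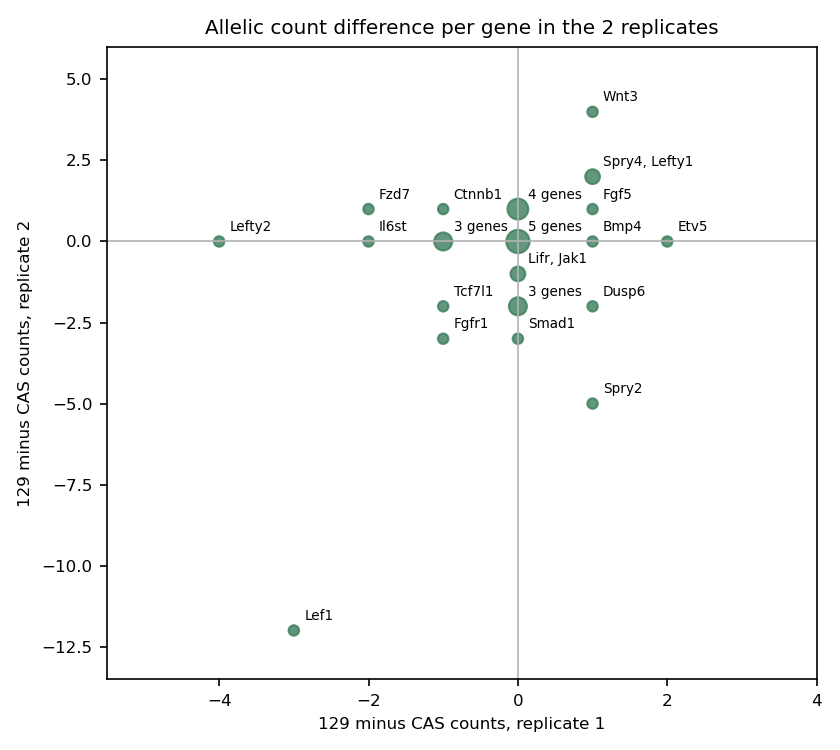
129 minus CAS counts per gene in replicate 1 (x axis) and replicate 2 (y axis); larger points hold several genes. Most of the 33 genes lie within 2 counts of 0 on both axes, and Lef1 stands at -3 and -12.

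Counts were concentrated at gene starts. Among 15 members with 2 or more rows, a matched start and a count, windows of the gene start averaged 12.0 counts, against 4.25 in the other 24 windows of the same genes. Over 6482 such protein-coding genes the values were 8.19 and 4.98. In 10 of the 15 genes the start window was the highest of the gene, against 53.7% of all such genes. Etv5 had 25 of 30 counts there, Bmpr1a 12 of 12 (in a window shared with other coding genes), and Il6st 14 of 18. The exceptions were Wnt3, Wnt3a and Smad3, whose start windows had fewer counts than another window, and Stat3 and Lef1, where the start window tied with another. Lef1 had 23, 13 and 23 counts in its 3 windows.

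**Figure D4:**
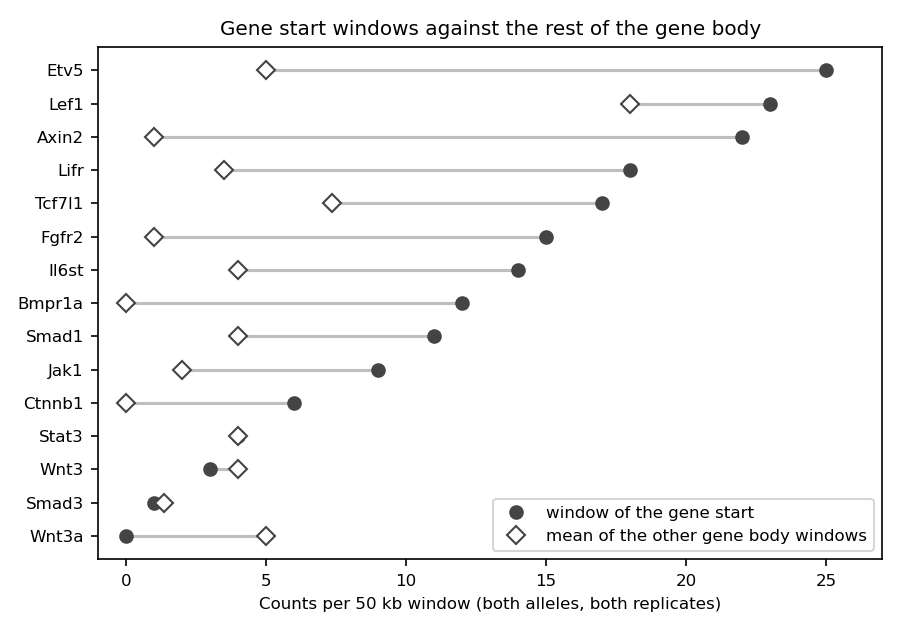
Counts per 50 kb window over both alleles and replicates (x axis) for 15 genes, in the window of the gene start (filled circles) and as the mean of the other gene body windows (open diamonds). The start windows of Etv5, Axin2 and Lifr hold 25, 22 and 18 counts; those of Wnt3, Wnt3a and Smad3 lie below the rest of the gene.

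In their surroundings, 25 of the 33 genes (75.8%) had more counts per window than the listed windows within 1 Mb on either side, against 58.7% of all protein-coding genes. For 8 genes (Lifr, Socs3, Fgfr2, Spry2, Spry4, Etv5, Lefty1 and Id2; 24.2%) no window of that stretch exceeded the highest of the gene, against 8.94% of all protein-coding genes. Stat3, Jak1, Acvr2b, Smad3, Bmpr1a, Wnt3, Wnt3a and Ctnnb1 had fewer counts per window than their surroundings.

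**Figure D5:**
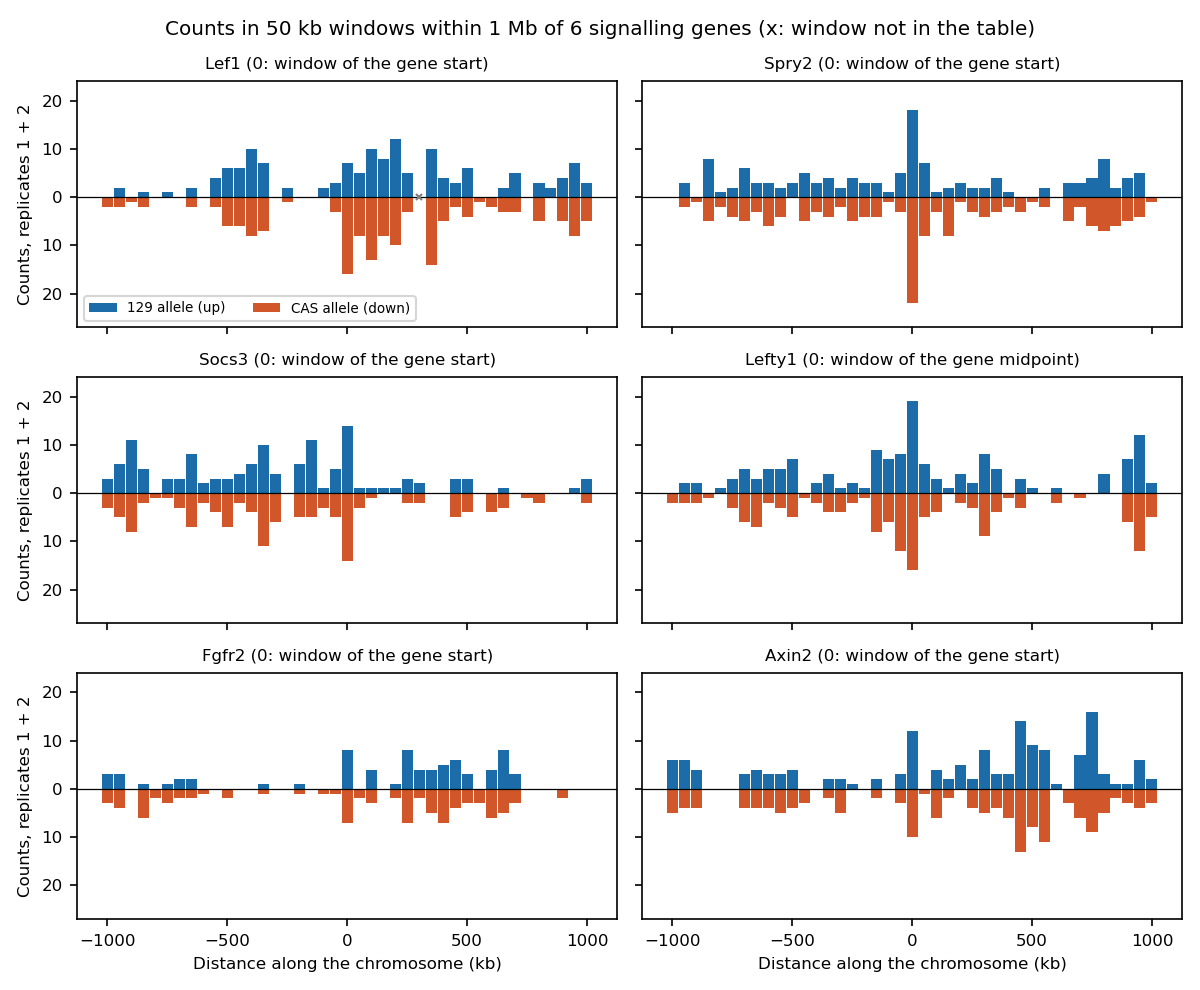
Counts in 50 kb windows, replicates 1 and 2 summed, on the 129 allele (blue, up) and the CAS allele (orange, down), against distance in kb from the window of the gene (x axis) for 6 genes. Peaks at 0 stand out for Spry2, Socs3 and Lefty1 on both alleles, and Lef1 shows 7 counts on 129 and 16 on CAS at 0.

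The replicates gave the same total at these genes, 296 counts each, although replicate 2 held 1.33 times the counts of replicate 1 over all windows. The ratio of replicate 2 to replicate 1 was 1.00 at the members, 1.18 in windows with a protein-coding gene and 1.76 in windows without one. By pathway it was 1.09 (LIF), 0.979 (FGF), 0.907 (Nodal), 0.897 (BMP) and 1.08 (Wnt). Replicate 2 had fewer counts than replicate 1 at 12 of the 33 genes (36.4%, against 36.3% of all protein-coding genes with a count), among them Socs3 (12 and 16 counts in replicates 2 and 1), Etv5 (12 and 18), Etv4 (2 and 7) and Fgfr2 (6 and 11). With 1 library per replicate this difference has no test.

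Of 98 further genes of the same pathways, 93 had a row; Pias3, Cntfr, Fgf15, Acvr1b and Foxh1 had none, and Wnt4 had 0 counts. The 129 share of their windows was 50.8% in both replicates (327 of 644 counts, then 341 of 671). In 10 of the 93 genes the 129 count was higher in both replicates and in 7 the CAS count, and 14 were equal in both. None reached a difference of 3 counts in both. At 2 counts, 4 genes passed on the 129 side and are named after their values were seen. The cytokine gene Lif had 4 and 2 on 129 against 2 and 0 on CAS, and the receptor gene Acvr1c had 4 and 5 against 2 and 3. Pcsk6, which encodes a convertase that processes Nodal, had 6 and 7 on 129 against 4 and 3 on CAS. Skil, a repressor of SMAD proteins, had 8 and 5 on 129 against 6 and 3 on CAS.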

How the data were processed

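Per the labels, nuclei of F121-6 cells were treated with transposase and libraries read as 100 bp pairs. Per the submitters' processing notes, Bowtie2, MACS2, SAMtools and bedtools were used on mm10. The unit counted, the rule that splits alleles and any window filter are not stated there. The deposited table holds whole-number counts per allele in windows of 50 kb, with no visible normalization by the authors, so read depth is unknown and counts were used as deposited (0 further per-sample columns).

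Gene bodies, starts and promoters came from RefSeq (GRCm38.p6, whose primary sequence is mm10), coordinates are 1-based, and 1 shared base counted as overlap. All 34 genes matched by symbol and 27 matched a promoter and strand. The window of a gene start used the outermost listed start. Counts were summed over the windows of a gene, and windows shared with other genes count for each. Of the 59 member windows, 22 also overlapped another protein-coding gene.

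Differences were tested with edgeR 4.0.16 (quasi-likelihood, TMM, allele as the term) on all protein-coding genes of chromosomes 1 to 19, and on windows, with 10 or more counts over the 4 columns and an adjusted p threshold of 0.05. Alternatives were the replicate as a block, DESeq2 1.42.0, other size factors, no filter, other window rules and each replicate left out. Both alleles of a replicate were read in 1 library, which pairs them: the deviations of the 129 and CAS columns from their allele means correlated at r = 0.376 over 9171 genes (log2 with pseudocount 0.5). Shares have exact Clopper-Pearson 95% intervals (scipy 1.17.1).

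Every member is given with its counts, and windows with a difference of 3 or more counts in both replicates are named. Members and lists were chosen with earlier results of these data known, and the motifs after seeing the data. A few results on genes outside the 34 are not reported here.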

Additional observations from a re-analysis of the deposited data

How the results depend on the processing

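Small counts limit what these data can show: most genes have 1 to 10 counts per allele and replicate, and values that vary by 1 count move a share by several points. With the replicate as a block, edgeR called 1 gene (on the CAS side, not a member) in place of 0, and 0 windows in place of 2. The windows called were also 0 in the DESeq2 Wald test and 0 with no filter. No member was called in any setting, with the smallest adjusted p between 0.988 and 1. Leaving out a replicate gives edgeR no residual degrees of freedom, so no count of calls was computed there. Lef1 was lower on 129 in every fit, at -0.73 to -0.74 on the log2 scale. Every fit used the same Lef1 counts, so this value had little room to move. From replicate 1 alone the log2 ratio was -0.30, and from replicate 2 alone -1.22.

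The mean 129 share of all members was 47.6%, and 49.8% as the mean of the genes' own shares. The LIF share of 47.8% became 45.2% from gene start windows, 44.4% from windows of no other coding gene and 48.1% relative to the chromosome. The Nodal share of 48.9% became 53.6% from gene start windows. The Wnt share of 45.4% became 46.2% from gene start windows, 47.3% with 1 window added on either side, 43.3% from windows of no other coding gene, 50.4% as the mean of the genes' own shares, 45.1% relative to the chromosome and 50.3% without Lef1, an alternative chosen after seeing the data. Both the LIF and the Wnt share had an SD under 0.3 points between replicates, so small moves exceed it. Without replicate 1 or replicate 2 the share of all members was 46.6% and 48.6%.

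The 4 genes higher on 129 in both replicates became 2 with gene start windows, 0 at a difference of 2 or more counts and 15 after scaling the allele columns to 1 total, which turns ties into differences. The 3 higher on CAS became 5 with 1 window added on either side and 1 at a difference of 2 or more. Single-gene shares moved by more than the spread between replicates for 6 of 25 genes with gene start windows and for 8 of 33 with a window added.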
